A study of Homo sapiens with 3 samples.

Results

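The ABC transporter family was taken as every row of the deposited expression files whose gene symbol is ABC, a subfamily letter from A to G and a number, which gave 46 of 25270 rows. RNA-seq was performed on HepG2, a human hepatocellular carcinoma line, under 3 conditions with 1 library each. The parental HepG2 cells were untreated, the HepG2/metR cells are labelled as derived from HepG2 by over 5 months under metformin and make much lactate, and the last library came from HepG2/metR cells kept for 24 h in 40 mM oxamate, which blocks lactate dehydrogenase. The paper gives the same medium with serum for its purchased lines, HepG2 among them. Whether HepG2/metR cells were still in metformin when RNA was taken is not given in the paper or the sample labels. HepG2/metR is represented by a single selected culture. Because there was 1 library per condition, no difference reported here has a replicate check, and no p-value or error between samples is given.

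ABC proteins bind and hydrolyse ATP, and most of them use it to move lipids, bile acids, drugs, peptides or heme intermediates across a membrane. In the liver, several members sit in the canalicular membrane of hepatocytes and form bile, others export conjugates to the blood side or cholesterol to apolipoproteins, and others work inside the cell in mitochondria, lysosomes and peroxisomes. Subfamilies E and F lack a membrane domain and act on ribosomes and translation. In tumor cells the family is best known for ABCB1, ABCG2 and the multidrug resistance proteins of subfamily C, which expel anticancer drugs.

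Values are FPKM, fragments scaled to transcript length and to library size, back-transformed from the deposited log2(FPKM + 1) values, so that levels are per length and can be set beside each other between genes. A log2 change is the difference of the deposited values of a pair of libraries, which understates the change of low genes. Both comparisons use the HepG2/metR library. FPKM summed to 562382 in the parental, 534646 in the HepG2/metR and 473773 in the oxamate-treated library, and the number of reads is unknown. The labelled tissue was checked with 10 hepatocyte markers, among them ALB, APOA1 and TTR. All 10 were at 163 FPKM or more in parental cells, whereas 2 of 10 reached 1 FPKM in each HepG2/metR library, FGB and SERPINA1, with the highest at 11.2 FPKM. The 2 libraries from HepG2/metR cells thus go against the hepatocyte origin in their label, as 8 of the 10 markers did not reach 1 FPKM in either. Whether this culture descends from the parental one cannot be settled from expression values, so each change given for HepG2/metR is a difference between a pair of cultures. Of 4 epithelial markers, the keratin genes KRT8 and KRT18 were at 605 FPKM or more in all 3 libraries, whereas EPCAM, at 102 FPKM in parental cells, and CDH1, at 5.92 FPKM, were under 0.1 FPKM in both others. Of 6 mesenchymal markers, VIM went from 1.23 to 1576 FPKM in HepG2/metR cells and THY1 from 0.0374 to 53.3 FPKM. The other mesenchymal markers passed no threshold there, with COL1A1 at 1.22 and 0.494 FPKM, COL1A2 at 0.141 and 0.0129, COL3A1 at 0.231 and 0.191 and PDGFRB at 3.43 and 3.66 FPKM. The 4 endothelial markers did not reach 1 FPKM in any library. The part of these marker differences in the results was not tested. The effect of selection under metformin cannot be told apart from any other difference between the parental and the HepG2/metR culture, and in RNA from whole cultures fewer cells of a kind cannot be told apart from less RNA per cell.

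The summed level of the family was lower in HepG2/metR cells. It was 627 FPKM in parental cells, 323 FPKM in HepG2/metR cells and 325 FPKM with oxamate, which is 0.112%, 0.0605% and 0.0685% of the summed FPKM of each library. A level of 1 FPKM or more was reached by 28 members in parental cells, 22 in HepG2/metR cells and 23 with oxamate. Of the 46 members, 29 had a mean of at least 1 FPKM over the libraries and were compared. The other 17 never exceeded 0.487 FPKM, the value of ABCC11 in parental cells. Of the 29 members compared, 14 (48.3%) were at least 2-fold below their parental level in HepG2/metR cells and 2 (6.9%) were at least 2-fold above it, against 17.6% lower and 16.6% higher among all 12210 genes compared. A gene that is high in 1 library alone can enter the comparison and then has to differ, so these shares describe the members compared and not the whole family. The median log2 change of the 29 members was -0.91, against 0.02 over all genes compared. With the oxamate-treated library set against parental cells in place of the untreated one, a comparison added after seeing the data, 13 members were at least 2-fold lower, against 17.6% of all genes, and 3 were at least 2-fold higher, against 18% of all genes.

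**Figure D1:**
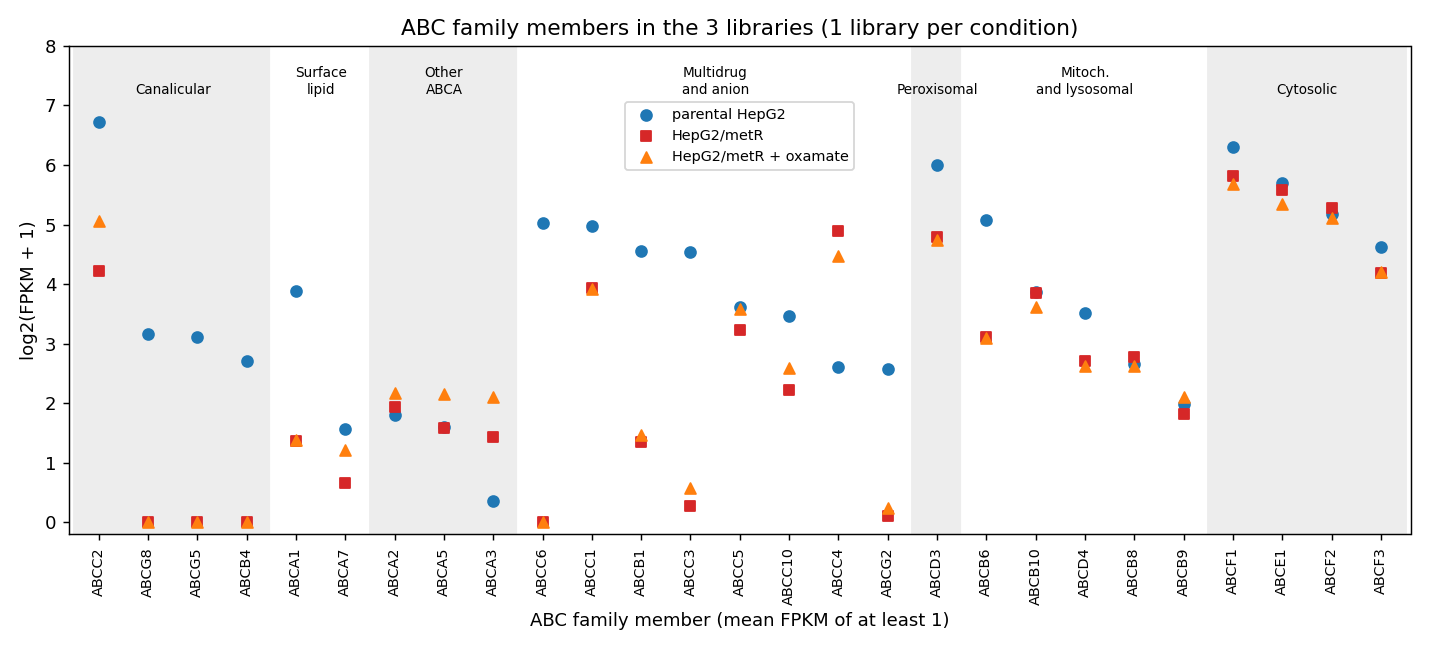
Level of 27 of the compared members on the log2(FPKM + 1) scale (vertical axis) in parental HepG2 (circles), HepG2/metR (squares) and oxamate-treated HepG2/metR (triangles), 1 library each, ordered by role and by parental level. ABCG8, ABCG5, ABCB4 and ABCC6 lie at or next to 0 in both HepG2/metR libraries, ABCC4 is higher in both, and the cytosolic members on the right lie close together.

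The order of the members changed with these levels. In parental cells the highest was ABCC2 at 104 FPKM, followed by ABCF1 at 78.2, ABCD3 at 63.1 and ABCE1 at 50.6 FPKM. In HepG2/metR cells ABCF1 led at 55.6 FPKM, before ABCE1 at 47.1, ABCF2 at 38.0 and ABCC4 at 28.8 FPKM, and ABCC2 was 7th. The mitochondrial, lysosomal, peroxisomal and cytosolic role groups (13 members, called intracellular here) made up 54.6% of the summed FPKM of the family in parental cells. They made up 74.1% in HepG2/metR cells and 69.2% with oxamate. In HepG2/metR cells 3 of the 12 intracellular members compared (25%) were at least 2-fold lower, against 17.6% of all genes compared. So were 11 of the 17 other members compared (64.7%). The others hold ABCA2 and ABCA5, grouped with the lipid transporters of subfamily A though also endosomal and lysosomal, and neither passed 2-fold. Of the 11 lower members among the others, ABCB4, ABCG5, ABCG8, ABCC3, ABCC6 and ABCG2 entered through the parental library alone. These had to differ. The lower intracellular members did not enter that way, so the shares of 64.7% and 25% are not on equal terms. No replicate exists to test this contrast.

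**Figure D2:**
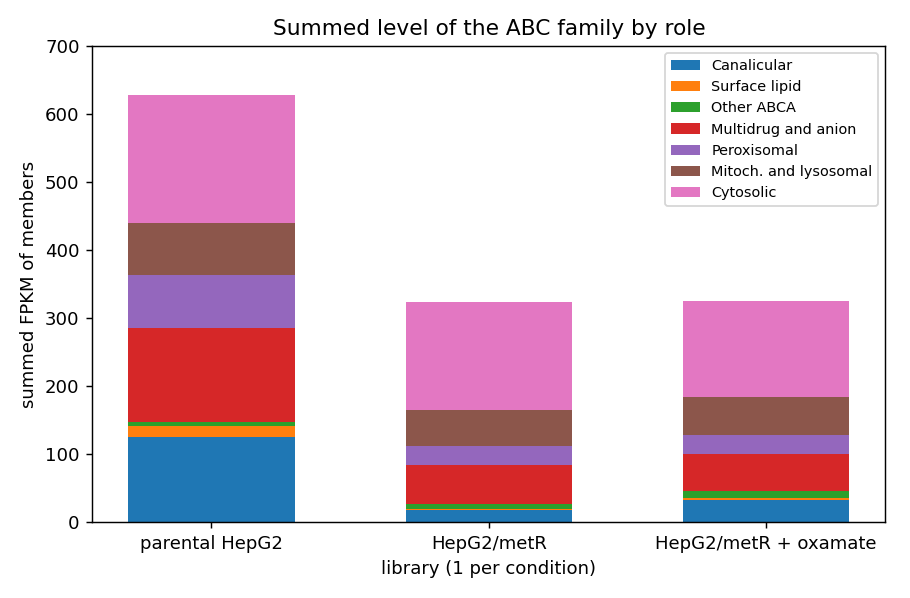
Summed FPKM of the members (vertical axis) in each of the 3 libraries, with bar segments for the role groups, 1 library per condition. The canalicular segment is 126 FPKM in parental cells, 17.6 in HepG2/metR cells and 32.2 with oxamate, while the cytosolic segment is 188, 158 and 141 FPKM.

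Promoter sequences are shown for selected members that passed 2-fold in HepG2/metR cells. The selection does not follow the order of the log2 changes. They were taken from RefSeq on GRCh38.p14, which held a promoter row for 35 of the 46 members. The first is the whole stretch between the start sites of ABCG5 and ABCG8, genes that lie head to head, with starts 132 bases apart, and that were both listed at 0 in HepG2/metR cells. The others are the 250 bases before the start site of ABCC2, ABCC6 and ABCA1, which were lower in HepG2/metR cells, of ABCB6, an intracellular member that was lower as well, and of ABCC4, which was higher. Capitals mark matches, on either strand, to the motifs searched: GTTAAT (HNF1 half-site), CAAAGTCCA (HNF4 core), CACGTG (E-box), TGACNNNGC (antioxidant response element core), GGGCGG (GC box), TATAAA, and the letters CCAAT.
ABCG5-ABCG8, chr2:43838840-43838970, + strand: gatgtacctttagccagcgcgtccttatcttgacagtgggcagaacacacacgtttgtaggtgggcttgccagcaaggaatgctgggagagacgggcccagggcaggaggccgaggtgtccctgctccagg
ABCC2, chr10:99782390-99782639, + strand: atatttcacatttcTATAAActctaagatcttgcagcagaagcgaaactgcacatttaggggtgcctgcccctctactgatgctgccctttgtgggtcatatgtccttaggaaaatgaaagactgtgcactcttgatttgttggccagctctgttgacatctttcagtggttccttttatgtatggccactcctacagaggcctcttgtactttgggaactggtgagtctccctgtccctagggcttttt
ABCC6, chr16:16223495-16223744, - strand: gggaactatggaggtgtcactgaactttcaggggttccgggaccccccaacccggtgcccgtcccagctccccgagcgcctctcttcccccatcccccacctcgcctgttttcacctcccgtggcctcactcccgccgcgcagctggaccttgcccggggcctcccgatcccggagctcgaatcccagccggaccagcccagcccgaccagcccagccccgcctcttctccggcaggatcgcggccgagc
ABCA1, chr9:104928156-104928405, - strand: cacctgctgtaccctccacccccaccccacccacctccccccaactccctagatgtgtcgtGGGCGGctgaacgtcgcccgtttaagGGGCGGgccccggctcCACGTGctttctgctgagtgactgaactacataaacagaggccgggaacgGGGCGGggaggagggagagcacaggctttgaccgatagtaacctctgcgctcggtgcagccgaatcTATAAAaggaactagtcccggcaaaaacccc
ABCB6, chr2:219218959-219219208, - strand: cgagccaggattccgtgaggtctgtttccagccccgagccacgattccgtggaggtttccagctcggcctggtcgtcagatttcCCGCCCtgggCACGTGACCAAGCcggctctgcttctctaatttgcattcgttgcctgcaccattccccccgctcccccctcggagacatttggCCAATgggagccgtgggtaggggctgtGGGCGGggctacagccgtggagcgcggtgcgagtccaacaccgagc
ABCC4, chr13:95301452-95301701, - strand: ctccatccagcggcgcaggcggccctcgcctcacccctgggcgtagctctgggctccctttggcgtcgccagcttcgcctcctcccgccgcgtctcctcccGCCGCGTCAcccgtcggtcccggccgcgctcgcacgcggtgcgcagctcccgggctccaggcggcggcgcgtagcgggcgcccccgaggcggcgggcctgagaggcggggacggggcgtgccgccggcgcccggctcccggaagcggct

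None of the 35 members with a promoter row had the HNF1 or HNF4 letters in its first listed window, and over all 35116 promoters of the same length 6.23% and 0.325% did. The ABCG5-ABCG8 stretch and the ABCC6 window held none of the motifs searched. ABCA1 held 3 GC boxes, an E-box and the letters TATAAA at 31 to 26 bases before the start. ABCC2 held the letters TATAAA at 236 to 231 bases before the start. ABCB6 held an E-box and an antioxidant response element core that share bases, besides 2 GC boxes and a CCAAT box, and ABCC4 an antioxidant response element core. Of all promoters 42.6% held a GC box, 32% CCAAT, 10.9% the antioxidant response element core, 10.7% TATAAA and 6.34% the E-box. In windows as short as the ABCG5-ABCG8 stretch, 35.2% held a GC box and 21.6% CCAAT. Base composition ran from 45.6% G and C in ABCC2 to 80.4% in ABCC4. These matches describe the letters and not binding.

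Canalicular members were lower in HepG2/metR cells or undetected in all 3 libraries apart from a trace. The list holds 5 genes, 4 of them were compared, and in HepG2/metR cells all 4 were at least 2-fold lower, against 17.6% of all genes compared. ABCB4, ABCG5 and ABCG8 entered the comparison through the parental library alone and so had to differ. ABCC2, which exports bilirubin glucuronide and other conjugates into bile, was at 104 FPKM in parental cells, 17.6 in HepG2/metR cells and 32.2 with oxamate. Its parental level was 5.94-fold that of HepG2/metR cells and 3.24-fold that of oxamate-treated cells, with log2 changes of -2.51 for HepG2/metR and 0.84 for oxamate. ABCB4, the floppase that puts phosphatidylcholine into bile, was at 5.54 FPKM in parental cells and was listed at 0 in both HepG2/metR libraries. ABCG5 and ABCG8, obligate partners that pump cholesterol and plant sterols into bile, were at 7.68 and 7.90 FPKM in parental cells, and both were listed at 0 in both HepG2/metR libraries. The partners thus had nearly the same level where they were detected. ABCB11, the bile salt export pump, was listed at 0 in parental and HepG2/metR cells and at 0.00720 FPKM with oxamate, so this canalicular gene was not detected in the parental line either.

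Genes that make, sense or carry bile acids were followed in a list of 16, of which 9 were compared. In HepG2/metR cells 5 of these 9 were at least 2-fold lower, 2 were at least 2-fold higher and 2 lay between. Over all genes compared, 17.6% were lower and 16.6% higher. The 5 lower genes entered the comparison through the parental library alone and so had to differ. NR1H4, the bile acid receptor FXR, which activates ABCB11 and ABCB4 in hepatocytes, went from 34.7 FPKM in parental cells to 0.0328 in HepG2/metR cells and was listed at 0 with oxamate. Its target NR0B2, a repressor of bile acid synthesis, was at 82.2 FPKM in parental cells and listed at 0 in both other libraries. The members higher in HepG2/metR cells were ATP8B1, a canalicular phospholipid flippase, at 1.93, 15.4 and 15.9 FPKM in parental cells, HepG2/metR cells and with oxamate, and the organic anion importer SLCO1B3, at 0.0146, 4.27 and 6.78 FPKM.

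Cell-surface exporters of sterols and phospholipids were few in these cells. ABCA1, which loads cholesterol onto apolipoprotein A-I, was at 13.8 FPKM in parental cells, 1.58 in HepG2/metR cells and 1.61 with oxamate, a log2 change of -2.52 followed by 0.01. ABCA7, its close relative, was at 1.98, 0.580 and 1.31 FPKM, with log2 changes of -0.91 and 0.55 that lie just inside both thresholds. With a pseudocount of 0.1 FPKM these became -1.61 and 1.05, past both. ABCG1 and ABCG4, which pass cholesterol to high-density lipoprotein, did not exceed 0.174 FPKM in any library. In a list of 13 genes of the liver X receptor (LXR), which activates ABCA1, ABCG1, ABCG5 and ABCG8, 8 were 2-fold or more below the parental level in HepG2/metR cells and 1 was 2-fold or more above it. Over all genes compared, these shares were 17.6% and 16.6%. Of the lower genes, APOC1 and PLTP entered the comparison through the parental library alone and so had to differ. The receptor genes went opposite ways: NR1H3 (LXR alpha) was at 9.34 FPKM in parental cells, 1.81 in HepG2/metR cells and 1.74 with oxamate, whereas NR1H2 (LXR beta) was at 12.3, 30.1 and 33.6 FPKM. With oxamate 2 of the 13 were at least 1.5-fold lower, against 3.82% of all genes compared. They were the lipid synthesis genes SCD, from 20.7 to 7.04 FPKM, and SREBF1, from 10.4 to 6.29 FPKM.

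The other lipid transporters of subfamily A were mostly silent, since 7 of 10 stayed under 0.339 FPKM or at that value in every library. ABCA3, which fills lamellar bodies with surfactant lipid in lung, was the member of this group that differed, at 0.279 FPKM in parental cells, 1.70 in HepG2/metR cells and 3.30 with oxamate. It passed 2-fold in the first comparison, with a log2 change of 1.08, and 1.5-fold in the second, at 0.67. ABCA5, of lysosomes and endosomes, was at 2.04, 2.0 and 3.48 FPKM. Its FPKM with oxamate was 1.73-fold that of untreated HepG2/metR cells. Its log2 change of 0.58, which understates the change of low genes, fell just short of the 1.5-fold call. ABCA2, also endosomal and lysosomal, was at 2.5, 2.84 and 3.48 FPKM. In each of these 3 genes the oxamate-treated library was the highest. ABCA6, ABCA8, ABCA9 and ABCA10, neighbours of ABCA5 on chromosome 17, were at most 0.0933 FPKM, and ABCA4, ABCA12 and ABCA13 at most 0.339.

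**Figure D3:**
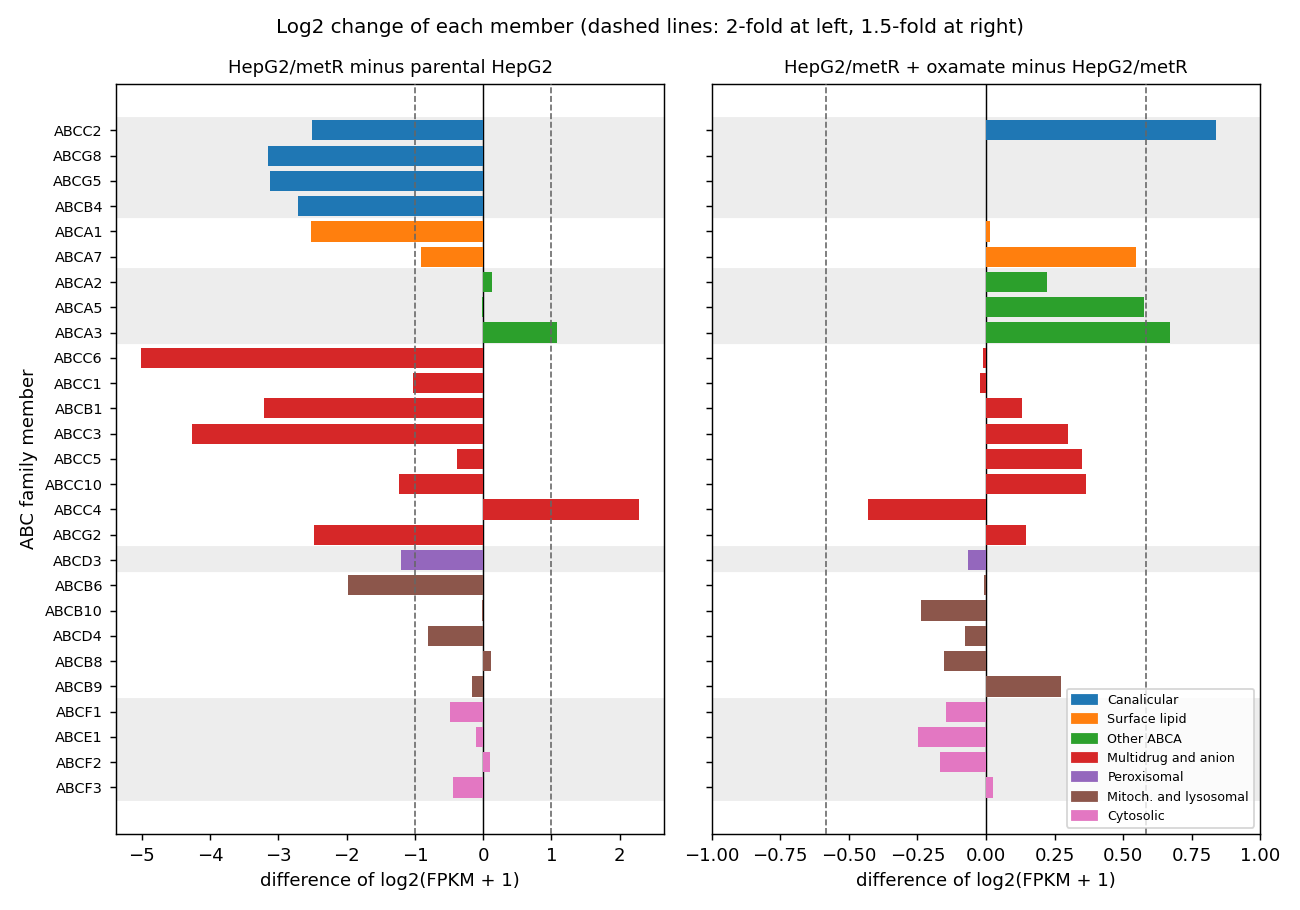
Log2 change of 27 of the compared members, coloured by role, in HepG2/metR against parental cells (left) and with oxamate (right), as differences of log2(FPKM + 1), with dashed lines at 2-fold and 1.5-fold and different horizontal scales. Bars on the left reach -5.02 for ABCC6 and 2.29 for ABCC4, and on the right ABCC2 and ABCA3 pass the line while no bar passes it downwards.

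Multidrug and organic anion transporters held both the largest fall and the largest rise among the 29 members on the log2 scale. Of the 12 genes, 8 were compared, and in HepG2/metR cells 6 of these were at least 2-fold lower, 1 was at least 2-fold higher and 1 lay between. Over all genes compared, 17.6% were lower and 16.6% higher. ABCC6, ABCC3 and ABCG2 entered the comparison through the parental library alone and so had to differ. ABCC6, a hepatocyte protein of the blood-facing membrane that releases ATP, was at 31.6 FPKM in parental cells, 0.00685 in HepG2/metR cells and 0 with oxamate. Its pseudogenes ABCC6P1 and ABCC6P2, near-identical copies of its first exons with which it can share reads, went the same way, from 12.0 and 9.22 FPKM in parental cells to 0.0134 and 0 in HepG2/metR cells. How the reads were divided among these copies is uncertain. ABCC3, which exports conjugates to the blood, was at 22.2 FPKM in parental cells, 0.210 in HepG2/metR cells and 0.490 with oxamate. ABCB1, the P-glycoprotein drug pump, was at 22.4, 1.54 and 1.78 FPKM, a log2 change of -3.21 followed by 0.13. ABCG2, the breast cancer resistance protein, was at 4.94, 0.0717 and 0.187 FPKM.

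ABCC1, a drug and glutathione conjugate pump, was at 30.3 FPKM in parental cells, 14.4 in HepG2/metR cells and 14.1 with oxamate. Its log2 change of -1.03 only just passed 2-fold. It weakened to -0.89 under upper-quartile scaling and to -0.96 when all libraries were given the same total outside small-RNA genes. ABCC10 was at 9.98, 3.68 and 5.03 FPKM, a log2 change of -1.23 for HepG2/metR, and of -0.87 when the oxamate-treated library was set against parental cells. Exons of ABCC10 overlap those of DLK2 on the other strand, which was at 0.465 FPKM in parental cells and 3.64 in HepG2/metR cells, and whether the counting used strand is not given in the sources used here. ABCC5, an exporter of nucleotides, lay between the thresholds at 11.3, 8.37 and 10.96 FPKM. ABCC4, which exports cyclic nucleotides, prostaglandins and, with glutathione, bile acids, was the member of this list that was higher, at 5.08 FPKM in parental cells, 28.8 in HepG2/metR cells and 21.1 with oxamate. Its level in HepG2/metR cells was 5.66-fold that of the parental line, and its log2 change of 2.29 was followed by -0.43 with oxamate, short of 1.5-fold. ABCB5, ABCC11, ABCC12 and the pseudogene ABCC13 did not exceed 0.487 FPKM.

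Xenobiotic receptors and their targets were a list of 12, of which 8 were compared. In HepG2/metR cells 5 of the 8 were at least 2-fold lower and 1 was at least 2-fold higher, against 17.6% and 16.6% of all genes compared. Some of the lower genes, NR1I2 among them, entered the comparison through the parental library alone and so had to differ. NR1I2, the receptor PXR that induces ABCB1 and ABCC2, went from 7.58 FPKM to 0.0246 in HepG2/metR cells and 0.0482 with oxamate. NFE2L2, the antioxidant regulator NRF2, was at 90.4, 39.3 and 38.3 FPKM, and its targets split, with NQO1 at 384, 37.7 and 47.9 FPKM and TXNRD1 at 90.1, 438 and 449 FPKM.

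**Figure D4:**
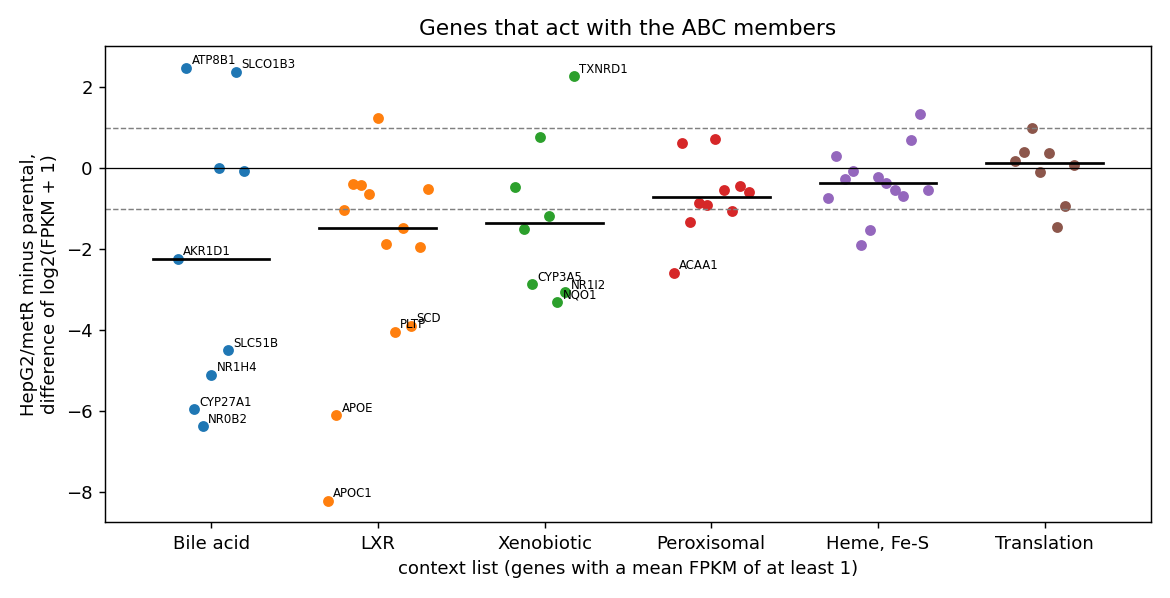
Log2 change in HepG2/metR against parental cells (vertical axis, difference of log2(FPKM + 1)) of genes that act with the ABC members, with 1 point per gene of each list with a mean FPKM of at least 1, black bars at the list medians and dashed lines at 2-fold. The bile acid list reaches from -6.38 for NR0B2 to 2.49 for ATP8B1, and the medians are -2.24 for the bile acid list, -0.36 for the heme and iron-sulfur list and 0.13 for the translation list.

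Peroxisomal members carry fatty acyl-CoA into the organelle. ABCD3, which takes up branched-chain acids and bile acid precursors, was at 63.1 FPKM in parental cells, 26.8 in HepG2/metR cells and 25.6 with oxamate, a log2 change of -1.20 followed by -0.06. ABCD2 stayed under 0.0320 FPKM or at that value. Among 10 genes of peroxisome assembly and oxidation, 3 were at least 2-fold lower, among them ACAA1 and PEX3, and 7 lay between the thresholds. Over all genes compared, 17.6% were lower. ACAA1, the peroxisomal thiolase, was at 72.6 FPKM in parental cells, 11.2 in HepG2/metR cells and 11.3 with oxamate.

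Among the mitochondrial and lysosomal members, ABCB6 alone passed 2-fold in HepG2/metR cells. ABCB6, a porphyrin transporter found in mitochondria, lysosomes and other membranes, was at 32.9 FPKM in parental cells, 7.61 in HepG2/metR cells and 7.56 with oxamate, a log2 change of -1.98. ABCB10, which supports heme synthesis, was at 13.6, 13.5 and 11.3 FPKM, and ABCB8 at 5.28, 5.82 and 5.14 FPKM. ABCD4, which works in lysosomal release of vitamin B12, was at 10.4, 5.51 and 5.16 FPKM, a log2 change of -0.81 for HepG2/metR, short of 2-fold. ABCB9, a lysosomal peptide transporter, was the lowest of the group, at 2.97, 2.54 and 3.28 FPKM, and its exons overlap those of ARL6IP4 on the other strand, which was at 56.7 FPKM or more in every library. Of 13 genes of heme and iron-sulfur assembly, 10 lay between the thresholds and 2 were at least 2-fold lower, among them GLRX5. The iron importer SLC25A37 was at least 2-fold higher. The shares among all genes compared were 17.6% lower and 16.6% higher.

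Cytosolic members stayed between the thresholds. All 4 were compared, and 0 of 4 passed either of them. For this group and the list below, the shares among all genes compared were 17.6% lower and 16.6% higher in HepG2/metR cells. With oxamate they were 3.82% lower and 4.3% higher. ABCE1, the ribosome recycling factor, was at 50.6 FPKM in parental cells, 47.1 in HepG2/metR cells and 39.5 with oxamate. ABCF2 was at 35.4, 38.0 and 33.7 FPKM. ABCF1, which binds the initiation factor eIF2, was at 78.2, 55.6 and 50.2 FPKM, and ABCF3 at 23.6, 17.1 and 17.4 FPKM. Their log2 changes lay between -0.48 for ABCF1 and 0.10 for ABCF2 in HepG2/metR cells. Among 8 genes that act with them in translation and recycling, 7 lay between the thresholds in HepG2/metR cells, and GSPT1, the termination factor eRF3a, was lower, at 72.8 against 26.0 FPKM. With oxamate 1 of the 8 was at least 1.5-fold lower, the ribosome factor EIF6, from 325 to 207 FPKM. The sulfonylurea receptors ABCC8 and ABCC9, subunits of potassium channels, did not exceed 0.0571 FPKM. Of the genes for their channel pores, KCNJ8 was listed at 0 in all 3 libraries and KCNJ11 reached at most 1.10 FPKM.

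With oxamate, 3 of the 29 members (10.3%) were at least 1.5-fold higher and 0 were at least 1.5-fold lower, against 4.3% higher and 3.82% lower among all genes compared. ABCC2 and ABCA3, both among the higher members, were 1.83-fold and 1.94-fold higher in FPKM than in untreated HepG2/metR cells. Each remained a single pair of libraries. The median log2 change of the 29 members was 0.01, against 0.02 over all genes compared, and the lowest was -0.43 for ABCC4. ABCC2 stayed below its parental level, and ABCA3 moved further above it.

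Members listed at or near 0 in HepG2/metR cells had neighbours that were still expressed. Of 23 members at 5 FPKM or more in parental cells, ABCB4, ABCC6, ABCG5 and ABCG8 were under 0.1 FPKM in HepG2/metR cells, 17.4% against 4.12% of all genes at that parental level, and the same 4 were under 0.1 FPKM with oxamate. Neighbours were read from the gene order of RefSeq on GRCh38.p14, among protein-coding genes that reached 1 FPKM in the parental library. ABCG5 and ABCG8 lie between DYNC2LI1, at 17.3 FPKM in parental cells and 13.9 in HepG2/metR cells, and LRPPRC, at 69.4 and 45.3 FPKM. ABCC6 lies between its relative ABCC1, at 30.3 and 14.4 FPKM, and NOMO3, at 5.35 and 3.43 FPKM. ABCB4 lies between CROT, at 5.50 and 4.96 FPKM, and ABCB1, at 22.4 and 1.54 FPKM, so that one side of it was lower as well. Around ABCC3 and ABCG2 both neighbours stayed at 2.06 FPKM or more in HepG2/metR cells.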

How the data were processed

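Total RNA was extracted with Trizol and sequenced on a NextSeq 500 by the authors. The values deposited by the authors are log2 values for each symbol in each library and have the form log2(FPKM + 1): back-transformed, 100% of the values above 1 are numbers of at most 6 digits. The submitters' processing notes name STAR 2.5.1b, Cufflinks 2.2.1, FastQC 0.11.5 and the build hg19. The annotation, the strand setting and the filters are not given in the sources used here. The files hold no coordinates, and RefSeq sequences and gene order are on GRCh38.p14.

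The members and lists were chosen with earlier results of these data known. The deposited values were subtracted as they stand, and genes with a mean of at least 1 FPKM (12210) were compared. Calls were at least 2-fold for HepG2/metR and 1.5-fold for oxamate, as in the study. Members were named by role group, with all 3 libraries for those past a threshold and for the highest and lowest of a group, and most other members compared were given too. Some genes counted in the totals are not reported here. Exon overlaps come from GENCODE release 29. Read numbers are unknown, and intervals that would need them are left out. Low values (under 0.15 FPKM) put the HepG2/metR library at 1.21 times and the oxamate-treated library at 1.24 times the parental depth. Promoters were read for 35 members, at the first start listed. The calculation was tested on simulated data. Alternatives covered pseudocount, filter, scaling and fold threshold. Python 3.11, numpy 2.4.6, pandas 2.3.3 and matplotlib 3.10.9 were used.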

Additional observations from a re-analysis of the deposited data

How the results depend on the processing

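The 14 members at least 2-fold lower in HepG2/metR cells became 15 with a pseudocount of 0.1 FPKM, as ABCA7 then passed. They became 13 under upper-quartile scaling or with each library at the same total outside small-RNA genes. With a mean of at least 5 FPKM, where fewer members were compared, they became 10, and at a 1.5-fold threshold 16. The share of all genes that were lower was 17.6% in the main run and 19.8% with that pseudocount. It was 15.5% under upper-quartile scaling, 16.4% at the same total, 15.9% with a mean of at least 5 FPKM and 27.0% at 1.5-fold. The 2 higher members became 1 with a mean of at least 5 FPKM, as ABCA3 was then not compared. The 3 members higher with oxamate became 7 with a pseudocount of 0.1 FPKM, as ABCA5, ABCA7, ABCC3 and ABCG2 then passed, 5 with each library at the same total outside small-RNA genes, as ABCA5 and ABCA7 then passed, and 0 at a 2-fold threshold, and no alternative gave a member lower with oxamate. The share of all genes higher with oxamate moved too, from 4.3% to 8.34% with that pseudocount, 10.6% at the same total and 0.541% at 2-fold. Same-total scaling moved the median log2 change of all genes with oxamate from 0.02 to 0.18, and upper-quartile scaling that for HepG2/metR from 0.02 to 0.15. No named member that passed a threshold changed direction under any alternative run. No paired analysis was possible because each condition has 1 library. Depth limits what can be said of members listed at 0, which are below detection and not shown to be absent.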

Other observations

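ABC proteins whose symbols fall outside the family rule were examined as well. TAP1 and TAP2, the peptide transporter of antigen presentation, were at 19.0 and 30.1 FPKM in parental, 22.2 and 41.9 in HepG2/metR and 25.1 and 37.3 in oxamate-treated cells, and neither passed a threshold. CFTR, a chloride channel of the same family, was listed at 0 in all 3 libraries. The pseudogene ABCA11P was at 6.27, 5.38 and 4.74 FPKM, unlike the ABCC6 pseudogenes described above, and ABCA17P did not exceed 0.0248 FPKM.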
